A study of Mus musculus with 20 samples.

Results

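Whole tumor homogenate (input) from 10 Py8119 tumors was compared between 6-3-A6 and control IgG treatment, 5 tumors against 5. These 10 libraries were all members of the comparison and were chosen by title and count table column out of the 20 libraries of the series. The other 10 libraries hold the HA immunoprecipitate (IP) of endothelial ribosomes from the same tumors. The host mice were female RiboTag EC mice, Rpl22 HA/HA x Cdh5CreERT2 on C57BL/6J, and every mouse of both groups carried both alleles. Tamoxifen was injected at 75 mg/kg on 5 days at 3 weeks of age, and Py8119 cells were placed in a mammary fat pad at 8 weeks. The 6-3-A6 group received 25 mg/kg of the antibody by vein over 10 days. The control group received mouse IgG on the same schedule, and tumors were taken on day 10. Treatment began at a tumor size of 30 mm3 by the sample labels and of 50 mm3 by the series design. The description lines of the 6-3-A6 libraries swap input and IP relative to their titles, so titles and count table column names decided the fraction. Input was drawn from the cleared lysate before the IP, so it holds RNA of tumor cells and all host cells, and the Cdh5 driver of the tag does not select it. The labels do not say that each tumor came from a separate animal, so p-values measure the spread between these tumors.

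Notch4 is a receptor found mainly on endothelial cells. Ligands of the Delta-like and Jagged families on a neighboring cell trigger cleavage of a Notch receptor by ADAM proteases and then by gamma-secretase, and the released intracellular part acts with Rbpj on target genes such as the Hes and Hey repressors. 6-3-A6 is an antibody made to neutralize Notch4, and Py8119 is a mouse mammary carcinoma line. In input, the RNA of endothelial cells is mixed with that of carcinoma cells, fibroblasts, macrophages and other cells. The comparison in input therefore asks how the whole tumor differed between treatments.

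Counts on genes per library ran from 11881214 to 26728205, where 3 counts equal 0.252 and 0.112 CPM (counts scaled to a common library size of 1e6 reads). One library stood apart before any comparison was made. In 6-3-A6 input 4, mitochondrially encoded genes took 38.2% of counts, against 6.90% to 17.2% in the other 9 libraries. Ribosomal protein pseudogenes reached 729 CPM in that library, against 32.1 to 213 CPM in the others, with 6-3-A6 input 5 second. Its normalization factor was 0.746, against 0.960 to 1.12. The first principal component held 62.9% of the variance and placed 6-3-A6 input 4 at 35.3, with the other libraries between -12.5 and 8.02. The second held 15.9% and placed 6-3-A6 input 5 at one end, at 15.0. The groups did not differ along the first component (exact permutation test, two-sided, p = 0.540, where 5 against 5 cannot go below 0.00794) or the second (exact permutation p = 0.738). Library size, mitochondrial share, pseudogene share, unnamed gene models and ribosomal protein share did not pass either, with exact permutation p from 0.198 to 0.849 and an adjusted p of 0.849 for all 7 measures. As a check of the fraction labels, 19 of 19 endothelial markers were called lower in input than in IP, while 24.8% of all genes were.

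**Figure D1:**
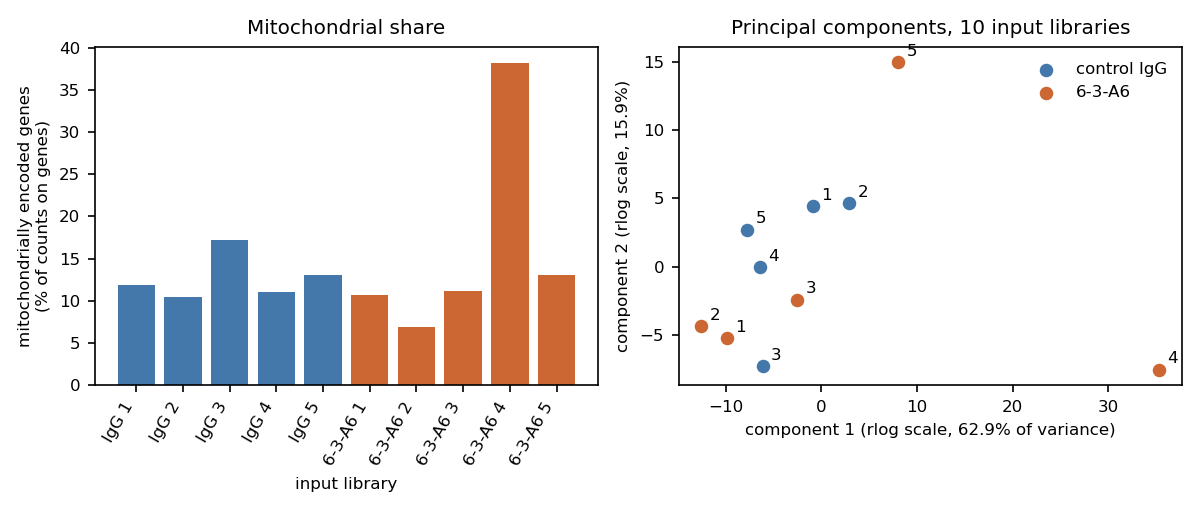
Left, the share of counts on mitochondrially encoded genes (percent, bars from 0) in each of the 10 input libraries. Right, the first and second principal components of rlog values of the 500 most variable genes, numbered by replicate; 6-3-A6 input 4 lies at 35.3 on the first component and 38.2% mitochondrial counts, apart from the other 9 libraries.

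No gene passed the test between the 6-3-A6 and the control IgG tumors. Of 13683 genes tested with the edgeR quasi-likelihood test, 0 (0%) had an adjusted p under 0.05, and the smallest adjusted p was 0.99985. At an unadjusted p under 0.05 there were 180 genes, of which 107 (0.782%) were higher and 73 (0.534%) lower with 6-3-A6. The 180 genes were 1.32% of those tested, below the share of 0.05 expected where no gene differs. With DESeq2 the count of calls was 0 as well, and 429 of the 28310 genes tested there (1.52%) were below 0.05 before adjustment. The log2 fold change was above 0 for 51.8% of genes, with a median of 0.01. The 95% confidence interval of a gene's log2 fold change reached a median of 0.57 to either side, which equals a 1.49-fold difference. It was 1.02 for genes under a mean of 1 CPM, 0.77 from 1 to 10 CPM, 0.49 from 10 to 100 CPM and 0.47 above. The groups did not overlap for 25 genes, 11 (0.0804%) with all 6-3-A6 tumors above all control tumors and 14 (0.102%) with all below. All values that follow come from this fit unless another is named, and every gene named had an adjusted p above 0.9. Of the 197 genes described, 102 turned sign under at least 1 of the 21 alternatives, which include leaving out each library.

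**Figure D2:**
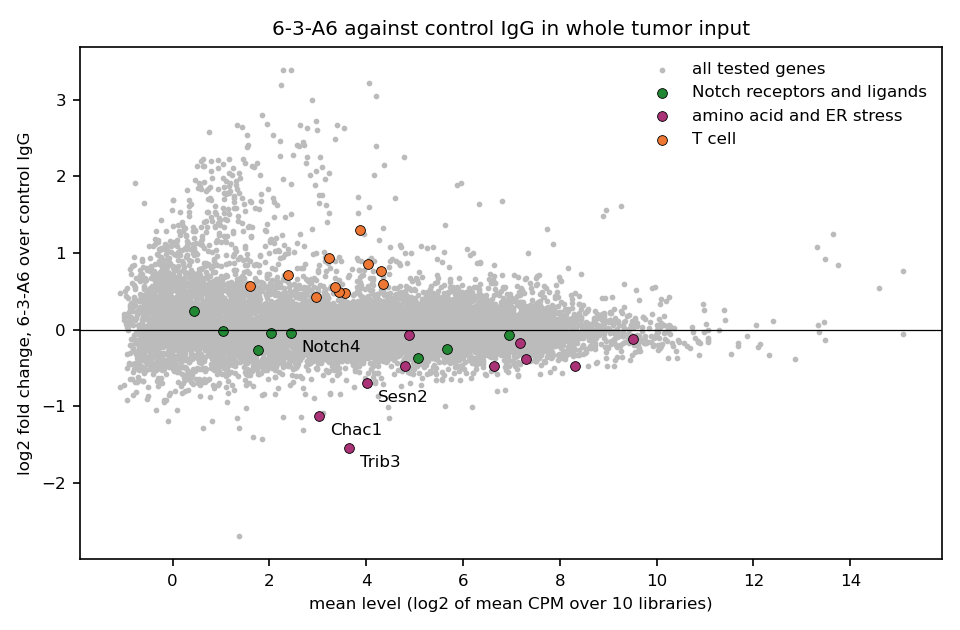
Log2 fold change of 6-3-A6 over control IgG (vertical) against the mean level in log2 CPM (horizontal) for the 13683 genes tested in input, with 3 gene lists in color. Notch receptors and ligands lie close to 0, and the amino acid and ER stress genes all lie below 0, down to Trib3 at -1.54.

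Of the Notch receptors and ligands, 0 of the 8 members tested reached an unadjusted p under 0.05, where 1.32% of all genes did, so a count of 0 in a list of this size is near the background. Notch4 (chromosome 17, 34783242 to 34807477 in the numbering of the count table, which names no build and is not that of GRCm38) was measured at 4.92, 6.07, 7.95, 4.48 and 4.37 CPM in control IgG inputs 1 to 5 and at 6.68, 6.54, 5.18, 2.40 and 5.98 CPM in 6-3-A6 inputs 1 to 5. The groups overlapped, and the lowest value was that of 6-3-A6 input 4. Its mean was 5.56 ± 1.499 CPM (SD, n = 5) with control IgG and 5.35 ± 1.76 CPM (SD, n = 5) with 6-3-A6, a log2 fold change of -0.04 (95% confidence interval -0.69 to 0.61). Without 6-3-A6 input 4 its log2 fold change was 0.14. Notch4 was 3.74 lower in input than in IP on the log2 scale, where endothelial transcripts are enriched. In bulk tumor RNA, fewer cells of a type and less RNA per cell cannot be told apart.

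Notch1, the receptor shared by many cell types, stood at 20.1, 37.6, 43.0, 38.4 and 49.3 CPM in control IgG inputs 1 to 5 and at 34.4, 42.2, 29.6, 6.71 and 32.2 CPM in 6-3-A6 inputs 1 to 5. Here too 6-3-A6 input 4 held the lowest value by a wide margin, and the log2 fold change of -0.37 became -0.12 without it. Dll4, the ligand of tip endothelial cells, was found at 5.13, 4.79, 4.37, 3.07 and 3.58 CPM in control IgG inputs 1 to 5 and at 4.44, 3.77, 4.01, 4.31 and 3.69 CPM in 6-3-A6 inputs 1 to 5. The 6-3-A6 values lay inside the control range (log2 fold change -0.05, 95% confidence interval -0.55 to 0.45). Jag1, a ligand of endothelial, mural and carcinoma cells, was at 72.8, 43.8, 51.4, 55.8 and 51.2 CPM in control IgG inputs 1 to 5 and at 48.3, 54.4, 32.6, 52.2 and 44.2 CPM in 6-3-A6 inputs 1 to 5. The highest Jag1 value was that of control IgG input 1 and the lowest that of 6-3-A6 input 3 (log2 fold change -0.25, 95% confidence interval -0.65 to 0.16), and the log2 fold change was -0.13 without the first and -0.15 without the second. Notch2 (log2 fold change -0.07), Notch3 (-0.27), Dll1 (0.24) and Jag2 (-0.02) had confidence intervals that include 0, with Notch3 at -0.09 without 6-3-A6 input 4 and Dll1 at 0.12 without control IgG input 3, and Dll3 had no counts. In all, 1 member was higher and 7 were lower, with a median of -0.06 beside 0.01 over all genes. Without 6-3-A6 input 4, 4 of the 8 were higher.

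Among the Notch target genes, 4 of the 8 tested were higher and 4 lower, with a median log2 fold change of -0.01 and 0 at an unadjusted p under 0.05. Hes1, a repressor that many cell types use, was present at 42.7, 28.6, 27.8, 22.1 and 20.6 CPM in control IgG inputs 1 to 5 and at 21.8, 26.9, 31.8, 40.0 and 18.3 CPM in 6-3-A6 inputs 1 to 5. The groups overlapped for Hes1 (log2 fold change -0.03, 95% confidence interval -0.58 to 0.52). Hey1, a Hes-related repressor with high levels in endothelium, was at 3.45, 2.80, 5.81, 4.64 and 2.79 CPM in control IgG inputs 1 to 5 and at 4.22, 3.94, 4.28, 2.59 and 2.22 CPM in 6-3-A6 inputs 1 to 5. Its values also overlapped (log2 fold change -0.17, 95% confidence interval -0.83 to 0.50), with a log2 fold change of 0.02 without control IgG input 3. Efnb2, the arterial ephrin ligand, had a log2 fold change of 0.00 (95% confidence interval -0.43 to 0.43), which excludes a 1.49-fold difference in either direction. The largest differences were those of Unc5b, a netrin receptor of tip cells (log2 fold change -0.55, 95% confidence interval -1.16 to 0.05), and Rnd1, a small GTPase (log2 fold change -0.47, 95% confidence interval -1.08 to 0.14). Unc5b was at 14.5 CPM in 6-3-A6 input 4 and between 36.4 and 41.7 CPM in the other 6-3-A6 tumors, and its log2 fold change without that library was -0.36. Rnd1 was at -0.29 without control IgG input 1. Heyl, Id3 and Gata2 had log2 fold changes of 0.02, 0.12 and 0.06. Leaving out single libraries gave -0.12 to 0.30 for Heyl, 0.00 to 0.32 for Id3 and -0.14 to 0.34 for Gata2. For Hes1 it gave -0.20 to 0.16. The other targets, Hes2, Hes5, Hes7, Hey2, Nrarp and Dtx1, did not pass the filter on low counts; 99.1% of the Nrarp span overlaps other genes in the count table, and it was listed at 0.

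Of 17 genes for Notch processing and transcription that were tested, 4 were higher and 13 lower, with a median of -0.08 and 0 at an unadjusted p under 0.05. Adam10 and Adam17, the proteases of the first cleavage, had log2 fold changes of -0.07 and -0.08. Psenen, Ncstn and Aph1a, subunits of gamma-secretase, had log2 fold changes of -0.20, -0.33 and -0.25, and of -0.03, -0.17 and -0.03 without 6-3-A6 input 4. Rbpj, the DNA-binding partner of the Notch intracellular domain, was at -0.03 (95% confidence interval -0.44 to 0.39). Without 6-3-A6 input 4, 8 of the 17 were higher and the median was -0.01.

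**Figure D3:**
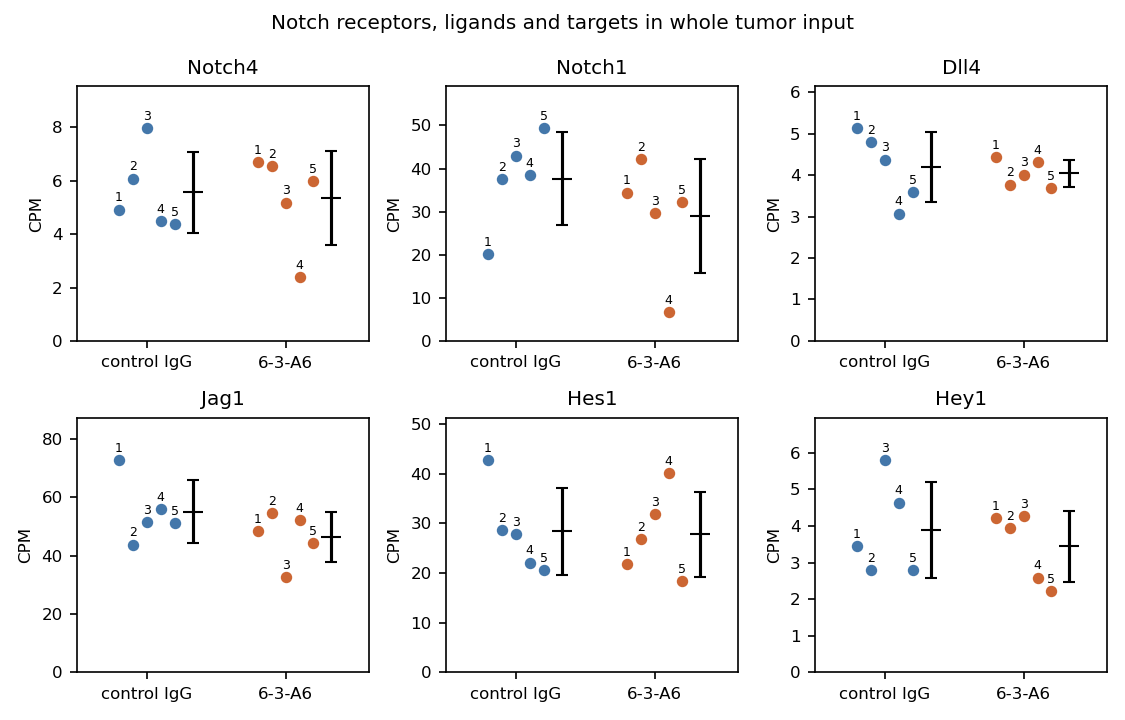
CPM of 6 Notch pathway genes in each input library (points, numbered by replicate) with the mean and SD of 5 tumors beside them. The groups overlap in every panel, and 6-3-A6 input 4 has the lowest Notch4 and Notch1 values.

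Endothelial markers were slightly lower in the 6-3-A6 tumors, within the spread between tumors. Of 18 tested, 6 were higher and 12 lower, with a median log2 fold change of -0.17 and 0 at an unadjusted p under 0.05. Pecam1, the platelet endothelial adhesion molecule, was at 60.1, 55.3, 68.0, 44.1 and 47.5 CPM in control IgG inputs 1 to 5 and at 62.5, 42.6, 56.1, 31.6 and 53.5 CPM in 6-3-A6 inputs 1 to 5. Cdh5, the endothelial cadherin, was at 47.1, 56.2, 54.9, 39.1 and 40.4 CPM in control IgG inputs 1 to 5 and at 52.5, 36.3, 43.6, 31.7 and 31.1 CPM in 6-3-A6 inputs 1 to 5. The 2 lowest Cdh5 values were those of 6-3-A6 inputs 4 and 5, and the groups overlapped (log2 fold change -0.28, 95% confidence interval -0.69 to 0.13). Kdr, the main VEGF receptor, had a log2 fold change of -0.27 (95% confidence interval -0.67 to 0.13), and Flt1, a second VEGF receptor, one of -0.09. Members ranged from Mmrn2 at -0.51 (-0.30 without control IgG input 1) to Erg at 0.49 (0.10 without 6-3-A6 input 4). Without 6-3-A6 input 4, the median of the list was -0.09.

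Mural cell genes were lower in the 6-3-A6 tumors for 11 of 12 members, with a median of -0.46. None reached an unadjusted p under 0.05. Acta2, smooth muscle actin, was at 73.5, 41.2, 17.2, 26.1 and 20.9 CPM in control IgG inputs 1 to 5 and at 18.2, 16.4, 24.2, 24.1 and 38.1 CPM in 6-3-A6 inputs 1 to 5. Control IgG input 1 was the highest of all tumors and the remaining values overlapped. Without control IgG input 1 the log2 fold change of Acta2 went from -0.57 to -0.12, and the median of the list to -0.27. Pdgfrb, the receptor that pericytes use (log2 fold change -0.57, 95% confidence interval -1.24 to 0.11), and Mcam (log2 fold change -0.43, 95% confidence interval -0.94 to 0.08) had the lowest p-values of the list. Pdgfrb was at -0.31 without control IgG input 1 and Mcam at -0.27 without control IgG input 2. Rgs5, a pericyte marker, was nearly level at -0.05.

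Of 14 genes for angiogenic ligands that were tested, 5 were higher and 9 lower, with a median of -0.09 (0.00 without 6-3-A6 input 4 or control IgG input 1, and -0.01 without 6-3-A6 input 5) and 1 (Vegfd) at an unadjusted p under 0.05, beside 0.782% of all genes on the higher side. Vegfd, a ligand for lymphatic and blood vessel receptors, was one of the 25 genes without overlap (chromosome X, 163156374 to 163185646, count table numbering). Vegfd was at 11.9, 10.1, 11.9, 12.3 and 10.2 CPM in control IgG inputs 1 to 5 and at 17.2, 13.1, 13.0, 21.3 and 18.4 CPM in 6-3-A6 inputs 1 to 5. Every 6-3-A6 tumor was above every control tumor, and the closest values of the groups were 12.3 and 13.0 CPM. Its log2 fold change of 0.56 (95% confidence interval 0.15 to 0.96) did not pass correction, and its value without 6-3-A6 inputs 4 and 5 was 0.36. Vegfa, the main hypoxia-driven ligand, was at 91.8, 95.4, 89.4, 73.9 and 73.5 CPM in control IgG inputs 1 to 5 and at 87.0, 83.8, 108, 61.4 and 36.7 CPM in 6-3-A6 inputs 1 to 5. 6-3-A6 input 5 was lowest for Vegfa and 6-3-A6 input 3 highest (log2 fold change -0.17, 95% confidence interval -0.70 to 0.36), with 0.00 without 6-3-A6 input 5. Angpt1 (0.16), Vegfc (-0.04), Cxcl12 (0.01) and Apln (0.05) were near level. Pgf was at -0.15 (-0.03 without 6-3-A6 input 4), and Angpt2 and Fgf2 were listed at 0 with at least 99.9% of their spans inside other genes.

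The genes of the amino acid and endoplasmic reticulum (ER) stress response were lower in the 6-3-A6 tumors, all 10 of 10, with a median log2 fold change of -0.47. None passed correction, and 3 (Trib3, Chac1 and Sesn2) reached an unadjusted p under 0.05 on the lower side, where the share over all genes was 0.534%. In this response, a kinase that senses uncharged tRNA or unfolded protein slows translation, the transcription factor Atf4 accumulates, and Atf4 turns on genes for amino acid uptake and synthesis. The direction was the same for all 10 without 6-3-A6 input 4 (median -0.49) and without 6-3-A6 input 5 (median -0.48). The mean level of the list separated 4 of the 5 control tumors from the rest. It was 6.23, 6.25, 5.44, 6.34 and 6.27 on the log2 CPM scale in control IgG inputs 1 to 5, and 5.42, 5.70, 5.45, 5.58 and 5.74 in 6-3-A6 inputs 1 to 5. Control IgG input 3 lay inside the 6-3-A6 range, and leaving it out moved the median to -0.57.

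Regulatory sequence of 3 of these genes is shown because Atf4 is known to bind C/EBP-ATF response elements. The motif searched was TGATGNAA on both strands (TTNCATCA in reverse), in RefSeq promoter windows of 250 bases before and 50 after a gene start in GRCm38.p6, printed 5′ to 3′ along the gene strand with matches in capitals.

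Trib3 (chr2:152344011-152344310, minus strand): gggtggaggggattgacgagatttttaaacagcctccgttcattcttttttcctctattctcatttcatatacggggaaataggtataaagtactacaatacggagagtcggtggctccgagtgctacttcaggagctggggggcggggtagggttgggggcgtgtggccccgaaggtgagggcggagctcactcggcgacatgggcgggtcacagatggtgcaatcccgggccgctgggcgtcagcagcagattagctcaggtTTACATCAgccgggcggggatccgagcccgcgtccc

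Chac1 (chr2:119350992-119351291, plus strand): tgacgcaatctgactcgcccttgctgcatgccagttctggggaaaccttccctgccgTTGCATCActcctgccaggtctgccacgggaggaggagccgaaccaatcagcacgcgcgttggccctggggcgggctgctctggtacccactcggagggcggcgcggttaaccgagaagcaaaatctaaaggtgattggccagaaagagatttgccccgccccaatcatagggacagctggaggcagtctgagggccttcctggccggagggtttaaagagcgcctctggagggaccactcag

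Asns (chr6:7693160-7693459, minus strand): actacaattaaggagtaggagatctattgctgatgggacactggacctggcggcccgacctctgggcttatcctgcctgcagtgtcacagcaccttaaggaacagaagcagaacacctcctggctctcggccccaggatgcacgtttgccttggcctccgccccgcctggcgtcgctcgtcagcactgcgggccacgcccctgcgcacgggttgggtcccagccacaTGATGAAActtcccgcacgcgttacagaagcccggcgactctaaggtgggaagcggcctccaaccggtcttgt

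The match begins at base 15 after the start in Trib3, 193 bases before it in Chac1 and 23 bases before it in Asns. All 10 members had a promoter in the table, 4 of them (Trib3, Chac1, Asns and Slc7a11) with a match, and Atf4, Ddit3, Hspa5, Xbp1, Psat1 and Sesn2 had none in this window. Of all 32851 promoters, 1304 (3.97%) held the motif, and of the 13272 promoters of genes tested here 320 (2.41%) did. Counted by gene, 1219 of 27025 had a match, and 300 of the 10370 tested genes with a promoter. These matches describe letters in a window and no binding was measured.

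Trib3, a pseudokinase that Atf4 induces and that feeds back on it, had the lowest p of all genes (chromosome 2, 152179342 to 152185952, count table numbering). It was at 20.7, 23.1, 5.89, 25.4 and 18.6 CPM in control IgG inputs 1 to 5 and at 4.17, 9.21, 5.49, 5.84 and 7.31 CPM in 6-3-A6 inputs 1 to 5. All control tumors but input 3 lay above all 6-3-A6 tumors. The mean was 18.7 ± 7.61 CPM (SD, n = 5) with control IgG and 6.405 ± 1.92 CPM (SD, n = 5) with 6-3-A6, a log2 fold change of -1.54 (95% confidence interval -2.30 to -0.79). Its edgeR adjusted p was 0.99985. DESeq2 gave Trib3 an adjusted p of 0.522, and edgeR one of 0.195 without control IgG input 3.

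Chac1, a glutathione-degrading enzyme, was at 12.5, 11.1, 3.34, 15.1 and 14.0 CPM in control IgG inputs 1 to 5 and at 3.90, 5.90, 4.22, 6.04 and 5.54 CPM in 6-3-A6 inputs 1 to 5. Control IgG input 3 lay below all 6-3-A6 tumors and the other 4 control tumors above all of them (log2 fold change -1.13, 95% confidence interval -1.87 to -0.39). Sesn2, a leucine sensor upstream of mTORC1, was at 20.9, 23.8, 13.1, 22.5 and 19.9 CPM in control IgG inputs 1 to 5 and at 12.6, 13.0, 14.9, 6.99 and 14.0 CPM in 6-3-A6 inputs 1 to 5. Control IgG input 3 again fell among the 6-3-A6 tumors, and 6-3-A6 input 4 was lowest (log2 fold change -0.70, 95% confidence interval -1.21 to -0.20); 32.97% of the Sesn2 span overlaps another gene. Slc7a5, the large neutral amino acid transporter, was not on the list but had the fifth lowest p of all genes. It was at 149, 146, 71.5, 150.2 and 149 CPM in control IgG inputs 1 to 5 and at 84.4, 89.1, 59.2, 55.7 and 92.0 CPM in 6-3-A6 inputs 1 to 5. The 4 controls other than input 3 lay between 146 and 150.2 CPM, all above the highest 6-3-A6 tumor (log2 fold change -0.81, 95% confidence interval -1.31 to -0.30). Slc1a4, a neutral amino acid transporter noticed for its lack of overlap after values were seen, had a log2 fold change of -0.42 (95% confidence interval -0.79 to -0.05).

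Atf4 itself was at 539, 428, 245, 333 and 308 CPM in control IgG inputs 1 to 5 and at 265, 275, 221, 227 and 347 CPM in 6-3-A6 inputs 1 to 5. It overlapped between groups, with the 2 highest values in control IgG inputs 1 and 2 (log2 fold change -0.47, 95% confidence interval -0.96 to 0.02), and without control IgG input 1 its log2 fold change was -0.30. Asns, asparagine synthetase, was at 117, 139.7, 55.9, 132 and 135 CPM in control IgG inputs 1 to 5 and at 52.3, 90.2, 61.9, 121 and 89.9 CPM in 6-3-A6 inputs 1 to 5. Asns overlapped more widely (log2 fold change -0.48, 95% confidence interval -1.08 to 0.12). The serine synthesis gene Psat1 was at -0.38 (95% confidence interval -0.84 to 0.07) and the cystine importer Slc7a11 at -0.47 (-1.22 to 0.27). Ddit3, a stress transcription factor also called CHOP, was at -0.08 (-0.43 to 0.27), Hspa5, the ER chaperone BiP, at -0.13, and Xbp1 at -0.18.

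**Figure D4:**
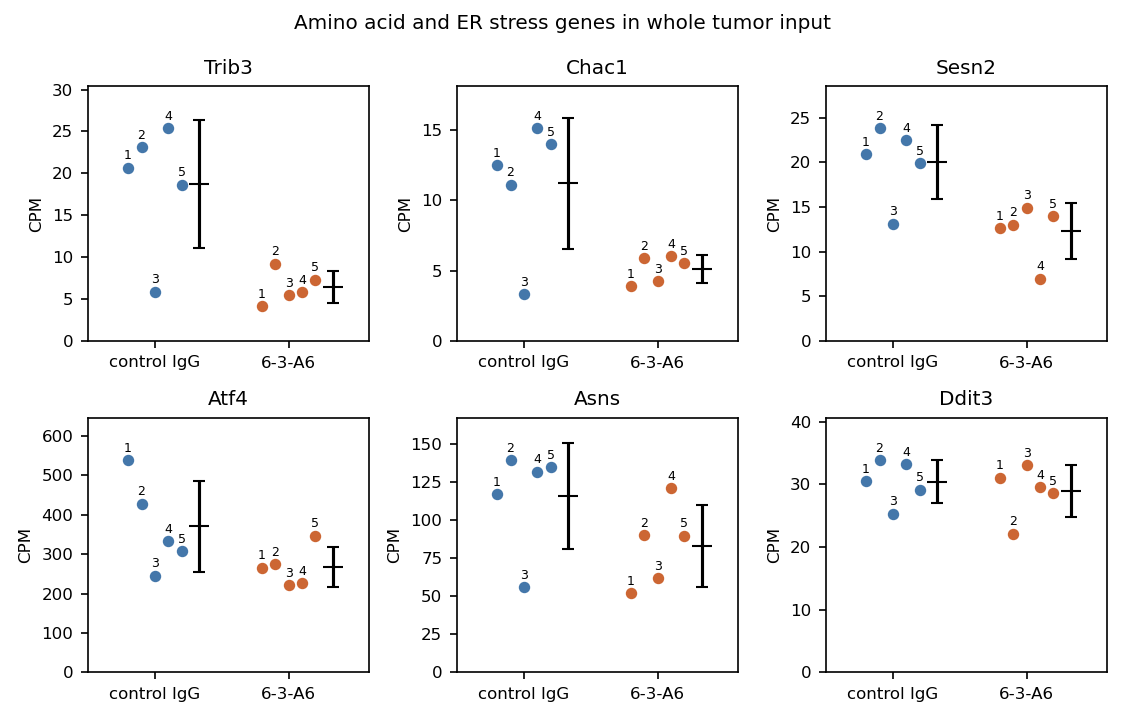
CPM of 6 amino acid and ER stress genes in each input library (points, numbered by replicate), with the mean and SD of 5 tumors. For Trib3 and Chac1 the control IgG tumors other than number 3 lie above every 6-3-A6 tumor, while the groups overlap for Ddit3.

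T cell genes were higher in the 6-3-A6 tumors for 11 of 11 members, with a median log2 fold change of 0.60, but 1 library set this. Without 6-3-A6 input 5, 3 of 11 were higher and the median was -0.20. Cd8a, the co-receptor of cytotoxic T cells, was at 11.2, 9.83, 16.8, 12.6 and 22.7 CPM in control IgG inputs 1 to 5 and at 11.6, 13.7, 12.9, 11.0 and 75.1 CPM in 6-3-A6 inputs 1 to 5. The value of 6-3-A6 input 5 was more than 3 times that of any other tumor, the other 4 lay inside the control range, and the log2 fold change went from 0.76 to -0.25 without it. Cd3e, a subunit of the T cell receptor complex, was the only member at an unadjusted p under 0.05, beside 0.782% of all genes. It was at 5.86, 5.59, 10.0, 7.98 and 12.8 CPM in control IgG inputs 1 to 5 and at 4.22, 5.94, 10.9, 44.3 and 39.4 CPM in 6-3-A6 inputs 1 to 5. For Cd3e both 6-3-A6 inputs 4 and 5 were high, and its log2 fold change went from 1.30 to -0.26 without them; 43.7% of its span overlaps another gene. Natural killer and cytotoxic genes behaved alike, with 9 of 9 higher (median 0.56) and, without 6-3-A6 input 5, 1 of 9 (median -0.26).

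Interferon-induced genes were higher for 17 of 17 members (median 0.33, 0 at an unadjusted p under 0.05), and for 6 of 17 without 6-3-A6 input 5 (median -0.19). Cxcl9, a chemokine that draws activated T cells, was at 197, 220.4, 224, 299 and 559.9 CPM in control IgG inputs 1 to 5 and at 84.0, 246, 246, 244 and 1071 CPM in 6-3-A6 inputs 1 to 5. 6-3-A6 input 5 was highest and 6-3-A6 input 1 lowest, so the group held both ends of the range (log2 fold change 0.33, 95% confidence interval -0.86 to 1.53). Without 6-3-A6 input 5 the log2 fold change of Cxcl9 was -0.55. The antigen presentation genes were divided, with 5 of 11 higher (median -0.05). Without 6-3-A6 input 5 none was higher and the median was -0.87. Of 7 immune checkpoint genes 6 were higher (median 0.22), and without that library 2 of 7 were (median -0.33). Ctla4, an inhibitory receptor of T cells and the 1 member at an unadjusted p under 0.05 (0.782% of all genes on the higher side), was at 1.53, at 0.67 without 6-3-A6 input 4, at 1.35 without 6-3-A6 input 5 and at -0.39 without both.

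Macrophage markers were lower for 10 of 14 members, with a median of -0.08 that became -0.47 without 6-3-A6 input 5 and 0.02 without 6-3-A6 input 2. Csf1r, the receptor for the macrophage growth factor, had the lowest p of the list (log2 fold change -0.37, 95% confidence interval -1.08 to 0.33), and was at -0.16 without 6-3-A6 input 4 and -0.58 without 6-3-A6 input 5. The receptors for IgG and their partners had a median of 0.10, with 5 of 6 higher and, without 6-3-A6 input 5, 0 of 6. Dendritic cell genes were lower for 5 of 7 (median -0.37, and 0.06 without control IgG input 5), with Ccr7, the receptor for homing to lymph nodes, at -0.69 (95% confidence interval -1.48 to 0.11) and at -0.42 without control IgG input 5. All 6 neutrophil genes lay between -0.20 and -0.04, with a median of -0.10 that became 1.05 without control IgG input 3 and -0.54 without 6-3-A6 input 1. Of 6 eosinophil and mast cell genes 5 were higher (median 0.84), 2 of them (Ms4a2 and Cpa3, both of mast cells) at an unadjusted p under 0.05 on the higher side, beside 0.782% of all genes. The 1 lower member was Siglecf, a marker of eosinophils, at -0.66 and at -0.41 without control IgG input 1. Without 6-3-A6 input 5 the median of the 6 was -0.06, while Ms4a2 went from 0.97 to 0.82 and Cpa3 from 0.90 to 0.52. Adipocyte genes were higher for 9 of 9 (median 0.58), and for 5 of 9 without that library (median 0.10).

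**Figure D5:**
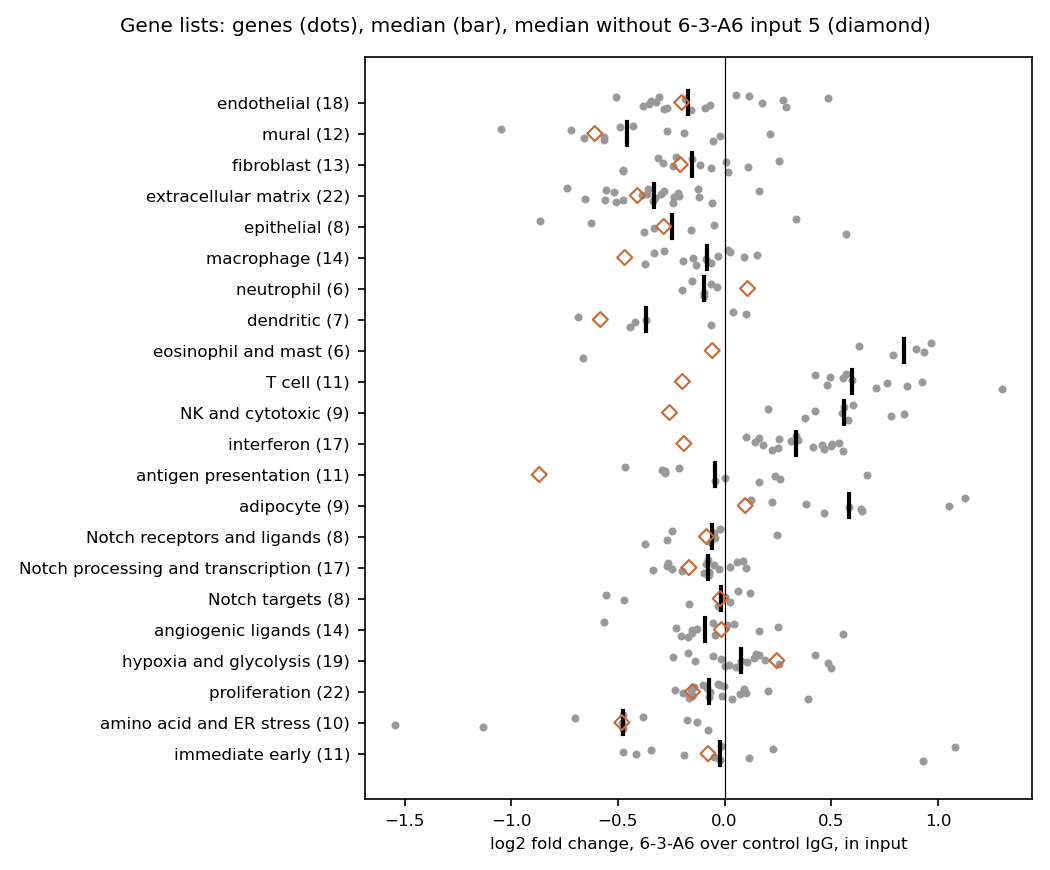
Log2 fold change of 6-3-A6 over control IgG in input for the genes of 22 lists (dots; number tested in parentheses), with the list median (bar) and the median without 6-3-A6 input 5 (open diamond). Medians of the T cell, natural killer, interferon and eosinophil and mast cell lists cross 0 without that library, while the amino acid and ER stress median stays at -0.48.

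Extracellular matrix genes were lower in the 6-3-A6 tumors for 21 of 22 members, with a median of -0.33. Of these, 1 (Mmp9) reached an unadjusted p under 0.05, beside 0.534% of all genes on the lower side. Mmp9, gelatinase B, was at 31.1, 36.8, 44.4, 29.8 and 30.4 CPM in control IgG inputs 1 to 5 and at 31.4, 25.2, 24.0, 15.1 and 21.6 CPM in 6-3-A6 inputs 1 to 5. The control range of 29.8 to 44.4 CPM overlapped the 6-3-A6 range at the value of 6-3-A6 input 1 (log2 fold change -0.55, 95% confidence interval -0.9999 to -0.11). Col6a1 and Col6a2, chains of collagen VI, had log2 fold changes of -0.47 and -0.56, and the fibronectin gene Fn1 one of -0.32 (95% confidence interval -0.99 to 0.34). Without 6-3-A6 input 4 they were at -0.29, -0.37 and -0.18, and Fn1 was at -0.17 without 6-3-A6 input 5 and 0.04 without both. Control IgG input 1 was highest for several members, such as Loxl2, Tnc and Sparc, and without it the median of the list was -0.15. Fibroblast markers were lower for 9 of 13 (median -0.15) and higher by 0.11 in the median without control IgG input 1.

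Hypoxia and glycolysis genes were higher for 14 of 19 members, with a median of 0.08 and 0 at an unadjusted p under 0.05. The median was -0.13 without 6-3-A6 input 3, 0.25 without 6-3-A6 input 5 and 0.42 without 6-3-A6 inputs 4 and 5. Car9, the hypoxia-induced carbonic anhydrase, ranged from 18.0 to 75.9 CPM in control tumors and from 8.43 to 67.5 CPM in 6-3-A6 tumors. Ldha, lactate dehydrogenase A, had a log2 fold change of 0.02 (95% confidence interval -0.46 to 0.50), and Slc2a1, the glucose transporter, one of 0.06 (-1.01 to 1.12). The 22 proliferation genes had a median of -0.07 (0.06 without control IgG input 4), with 6 higher and 16 lower, and Mki67, the marker of cycling cells, at 0.39 (95% confidence interval -0.51 to 1.29). Mki67 was at 0.20 without control IgG input 3 or without 6-3-A6 input 5, and at -0.52 in the 6 tumors the study kept for IP. Immediate early genes were mixed, with 4 of 11 higher, 7 lower and a median of -0.02. The median was 0.12 without 6-3-A6 input 4 and -0.11 without control IgG input 4. Of the members, 2 (Dusp1 and Fos) reached an unadjusted p under 0.05 on the higher side, beside 0.782% of all genes. Dusp1, a phosphatase of MAP kinases, was at 13.8, 13.0, 23.3, 15.6 and 18.8 CPM in control IgG inputs 1 to 5 and at 33.04, 15.7, 32.3, 20.1 and 77.5 CPM in 6-3-A6 inputs 1 to 5. The highest value was that of 6-3-A6 input 5, without which the log2 fold change went from 1.08 to 0.58. Fos, at 0.93, went to 0.38 without the same library. Egr1, Egr2 and Egr3 were lower, at -0.19, -0.41 and -0.47.

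Outside the lists, the lowest p-values on the lower side included Cdsn, an adhesion protein of cornified epithelium, at 34.9, 32.4, 17.6, 27.8 and 32.4 CPM in control IgG inputs 1 to 5 and at 9.62, 10.5, 11.5, 22.1 and 18.4 CPM in 6-3-A6 inputs 1 to 5. Control IgG input 3 lay below 6-3-A6 inputs 4 and 5, and the other control tumors above all 6-3-A6 tumors (log2 fold change -1.02, 95% confidence interval -1.61 to -0.43). Cbr2, a carbonyl reductase, did not overlap between groups, at 47.0, 75.4, 47.1, 63.1 and 57.7 CPM in control IgG inputs 1 to 5 and at 43.7, 35.1, 36.5, 27.2 and 41.7 CPM in 6-3-A6 inputs 1 to 5. The margin was small, from 43.7 to 47.0 CPM (log2 fold change -0.65, 95% confidence interval -1.06 to -0.25). Ctsf (-0.84), Cyb5r1 (-0.55), Inka2 (-0.89) and Cdh15 (-1.15) were also among the 10 lowest on that side.

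On the higher side, the named gene with the lowest p at a mean of 1 CPM or more was Clk1, a kinase of splicing factors, at 36.7, 27.4, 28.1, 36.7 and 35.2 CPM in control IgG inputs 1 to 5 and at 38.3, 47.5, 45.9, 56.6 and 42.4 CPM in 6-3-A6 inputs 1 to 5. All 6-3-A6 tumors were above all control tumors (log2 fold change 0.49, 95% confidence interval 0.13 to 0.85). The predicted gene Gm31108 (log2 fold change 1.91) and Vmn1r42 (1.43), a vomeronasal receptor gene, had lower p-values at mean levels of 0.232 and 0.451 CPM with control IgG and of 0.934 and 1.25 CPM with 6-3-A6, and are named here after their values were seen. Both were highest in 6-3-A6 input 4, at 1.92 and 2.87 CPM. Control values of Gm31108, from 0.159 to 0.364 CPM, were near the level of 3 counts, and 51.7% of the Vmn1r42 span overlaps other genes. Rgs1, a GTPase regulator of leukocytes, was at 10.0, 8.31, 16.5, 18.6 and 26.6 CPM in control IgG inputs 1 to 5 and at 20.7, 19.98, 35.0, 31.5 and 44.9 CPM in 6-3-A6 inputs 1 to 5. The groups overlapped, with 6-3-A6 input 5 highest (log2 fold change 0.93, 95% confidence interval 0.21 to 1.64). Acsl3, a fatty acyl-CoA ligase (0.42), and Ica1l (1.06) did not overlap. Ica1l was highest in 6-3-A6 input 4, and its log2 fold change was 0.59 without that library. Acsl3 was also highest there and was at 0.29 without it, and 27.0% of its span overlaps other genes. For Efcab8, Pnma8c, Rpl31-ps8 and Asic2 the highest tumor was 6-3-A6 input 4. Efcab8 was at 40.2 CPM there and at no more than 1.69 CPM in the other 9 tumors, and its log2 fold change of 3.38 became 0.34 without that library. Pnma8c went from 2.22 to 0.91, Rpl31-ps8 from 3.21 to 0.70 and Asic2 from 1.92 to 0.61. With mitochondrially encoded genes and pseudogenes removed before normalization, Efcab8 was at 3.44, Pnma8c at 2.27 and Asic2 at 1.97.

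The genes named in the study for this experiment and tested here numbered 16, of which 5 were higher and 11 lower, and 1 (Mmp9) was at an unadjusted p under 0.05 on the lower side, beside 0.534% of all genes. The study named them from endothelial IP RNA, with 3 tumors kept in each group for sequencing, and not from input. Of the globin genes, 4 of 4 were higher, with a median of 1.04 that became 2.99 without control IgG input 3. Hbb-bs, an adult beta globin, was at 21.6, 35.4, 463, 66.6 and 26.8 CPM in control IgG inputs 1 to 5 and at 509, 616, 305, 42.4 and 42.2 CPM in 6-3-A6 inputs 1 to 5. Control IgG input 3 and 6-3-A6 inputs 1, 2 and 3 were high and the other 6 tumors low, in both groups (log2 fold change 1.31, 95% confidence interval -0.75 to 3.36). Without control IgG input 3 its log2 fold change was 3.01. Marco, a macrophage scavenger receptor, was at -0.33 (95% confidence interval -2.27 to 1.61), Tlr8 at -0.07 and Tlr9 at -0.27, both sensors of nucleic acid, and Bcar1, a focal adhesion adaptor, at -0.09. Single libraries moved all 4 of these, and Bcar1 was at 0.08 without 6-3-A6 input 4. Marco was at -1.20 without 6-3-A6 input 5 and 0.20 without control IgG input 5, Tlr9 at -0.80 and 0.06, and Tlr8 at -0.01 and 0.31. In the 6 tumors that the study kept for IP, Marco was at -1.48, Tlr9 at -1.27 and Tlr8 at -0.37. Col6a3, a collagen VI chain, was at -0.65 (-0.10 without control IgG input 1). Ramp3 was at 0.05 (-0.20 without 6-3-A6 input 3) and Hras at -0.06 (0.08 without 6-3-A6 input 4). Rem2 and Nos3 did not pass the filter on low counts.

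The remaining lists are given together here. The p53 and apoptosis genes had a median of 0.01, with 6 of 10 higher and Sesn2, which is on both lists, the 1 member at an unadjusted p under 0.05, beside 0.534% of all genes. Genes of the mesenchymal state were higher for 9 of 10 (median 0.09) and, without 6-3-A6 input 4, for 6 of 10 (median 0.04). B and plasma cell genes were higher for 4 of 5 (median 0.20). Cytokines and chemokines were divided, with 8 of 15 members higher (median 0.08), near the 51.8% of all genes above 0. The B and plasma median was -0.03 without 6-3-A6 input 5, and the cytokine median -0.15 without that library and 0.48 without control IgG input 3. Epithelial genes were lower for 6 of 8 (median -0.25, and -0.09 without control IgG input 2) and skeletal muscle genes for 5 of 6 (median -0.17, and 0.34 without control IgG input 4). Lymphatic endothelial genes were higher for 2 of 3 (median 0.15, and -0.07 without 6-3-A6 input 4), platelet genes for 3 of 4 (median 0.21, and 0.07 without control IgG input 1, with 1 member, Gp1ba, at an unadjusted p under 0.05 beside 0.782% of all genes) and Schwann cell genes for 1 of 2 (median -0.09, and -0.58 without 6-3-A6 input 4). Both keratinocyte genes tested were lower (median -0.33, and 0.25 without control IgG input 1), the 1 erythroid gene tested other than globin was higher (0.33, and 3.28 without control IgG input 3), and none of the 6 mammary secretory genes passed the filter on low counts. Mitochondrially encoded genes were higher for 6 of 7 (median 0.84), and without 6-3-A6 input 4 for 0 of 7 (median -0.28).

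The 15 genes that varied most between the 10 tumors were ranked without use of treatment. Slc4a1, the anion exchanger of red cells, had the largest spread and was at 0.314, 0, 25.6, 2.00 and 0.486 CPM in control IgG inputs 1 to 5 and at 14.7, 6.14, 13.7, 0 and 0.369 CPM in 6-3-A6 inputs 1 to 5. It was high in the same 4 tumors as Hbb-bs. Afm, afamin, was at 30.9, 81.3, 3.10, 8.52 and 1.46 CPM in control IgG inputs 1 to 5 and at 1.28, 1.23, 20.3, 273 and 166 CPM in 6-3-A6 inputs 1 to 5. 6-3-A6 inputs 4 and 5 were highest, as they were for Gm26820, Gm50306, Gm8129, Gucy1b2, Iqcm and Dgkb, and of these Gm8129 had an unadjusted p of 0.0359. Its log2 fold change went from 2.99 to 1.05 without 6-3-A6 input 4. Gzmg, a granzyme, was at 98.8, 2.16, 66.5, 0.324 and 1.40 CPM in control IgG inputs 1 to 5 and at 3.96, 60.6, 18.5, 2.01 and 49.6 CPM in 6-3-A6 inputs 1 to 5. High and low Gzmg tumors were found in both groups, and Gzmd followed the same order of high tumors. Hbb-bt, Hba-a1, Hba-a2, Flg and Chil3 were the others of the 15, with unadjusted p-values from 0.358 (Hba-a2) to 0.837 (Flg).

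The IP fraction of the same tumors was set beside input for the same genes. In IP, 0 of 13602 genes (0%) were called and 292 were at an unadjusted p under 0.05. The interaction of treatment and fraction, which tests whether the difference in input is unlike that in IP, called 0 of 14488 genes (0%), with 140 at an unadjusted p under 0.05. Trib3 had a log2 fold change of -1.54 in input and -0.32 in IP (interaction -1.01, unadjusted p = 0.0422, adjusted p = 1). Chac1 was at -0.66 in IP, Sesn2 at -0.30 and Slc7a5 at -0.62, and 9 of the 10 amino acid and ER stress genes were below 0 there. Notch4 was at -0.12 in IP and Hes1 at -0.08. Notch1 was at -0.37 in input and 0.18 in IP (interaction unadjusted p = 0.0313). Input and IP share the tumors, so values in both fractions are not independent.

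The study kept 6 tumors for its IP comparison, control IgG 2, 4 and 5 and 6-3-A6 1, 3 and 4. In the input of these 6, edgeR called 0 of 13801 genes, while 561 fell below 0.05 before adjustment, and the smallest adjusted p was 0.611, for Trib3. That choice leaves out control IgG input 3. Trib3 had a log2 fold change of -2.12 there, Slc7a5 one of -1.16, and the median of the amino acid and ER stress list was -0.68. The T cell median in these tumors, without 6-3-A6 input 5, was -0.32.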

How the data were processed

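Total RNA of whole tumor lysate was sequenced as single reads. Per the submitters' processing notes, STAR 2.7.4a, featureCounts and DESeq2 were used, with the builds mm10 and GRCh38 named. The deposited table holds read counts per gene made by the authors, for 55866 genes. Each of 55789 genes is given as 1 span whose length includes introns, and 12675 genes wholly inside others have 0 counts, so reads in shared spans are not seen. The table names no build, and its gene starts equal those of GRCm38 for only 1363 of 50574 matched genes. A second table of normalized IP values, fold changes and p-values from the study's own comparison was not used, except that its column names show which 6 tumors that comparison kept. Columns were matched to samples by title.

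Input libraries were fitted with edgeR 4.0.16 (quasi-likelihood test, TMM normalization, filterByExpr, Benjamini-Hochberg adjustment at 0.05). CPM values of single genes use TMM-scaled library sizes, while those of ribosomal protein pseudogenes and of the floor of 3 counts use library totals. The IP libraries and the interaction, with tumor as a block, were fitted in the same way. DESeq2 1.42.0 and limma 3.58.1 served among 21 alternatives, 2 of them added after the data were seen. The test was run on simulated data first. Genes were named from Notch receptors, ligands and targets, genes the study names, up to 4 lowest-p members of each list, the 10 lowest p in each direction at a mean of 1 CPM or more, and the 15 most variable at 5 CPM or more. Not every list member that met this rule is named, and some that did not are. The members and the 38 lists were chosen with earlier results of these data known, so their counts are descriptions. Confidence intervals of fold changes come from the edgeR fit and cover the spread between tumors, and the floor of 3 counts covers counting error only.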

Additional observations from a re-analysis of the deposited data

Results flagged for a closer look

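Single libraries lay far from the other 4 of their group in 17 of the 160 groups of 5 examined, where chance gives about 8. A group was listed where the gap of the highest or lowest library to its neighbor, divided by the range of the group, was above 0.71. Of the 17, 8 were in 6-3-A6 input 4, 4 in 6-3-A6 input 5 and 5 in control IgG groups.

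In 6-3-A6 input 4 the ratio was 0.802 for the mitochondrial share of counts, 0.794 for the pseudogene share, 0.912 for the share of unnamed gene models and 0.740 for ribosomal protein pseudogenes, all high. It was 0.711 for the mean level of the Notch processing list, 0.748 for Notch4, 0.806 for Notch1 and 0.776 for Sesn2, all low. In 6-3-A6 input 5 it was 0.772 for the second principal component, 0.820 for the macrophage list, 0.759 for the interferon list and 0.887 for Cd8a, all high. In control IgG input 3 it was 0.872 for the amino acid and ER stress list, 0.788 for Trib3, 0.794 for Chac1, 0.806 for Asns and 0.963 for Slc7a5, all low. With mitochondrially encoded genes and pseudogenes removed before normalization, the log2 fold changes were -0.03 for Notch4, -0.36 for Notch1 and -0.68 for Sesn2, against -0.04, -0.37 and -0.70 as reported.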

How the results depend on the processing

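The count of called genes in input was 0 under all 21 alternatives. Genes at an unadjusted p under 0.05 numbered 180 as reported (1.32% of genes tested), 429 with DESeq2 (1.52%) and 1120 with no filter on low counts (3.9%). They numbered 714 (5.22%) with limma and library weights (smallest adjusted p 0.102, Cdsn) and 390 (2.69%) with all 20 libraries in 1 fit. In the 6 tumors the study kept for IP there were 561 (4.06%), and without 6-3-A6 inputs 4 and 5 there were 549 (3.9%). Leaving out 1 library gave 83 (0.602%, control IgG input 4) to 560 (4.02%, 6-3-A6 input 5). With the replicate number as a block there were 99 and 0 called. Same-numbered tumors of the 2 groups correlated at -0.17, -0.36, 0.27, 0.08 and -0.16, and no control IgG tumor correlated best with its own number. No pairing by number was seen, though so few tumors cannot exclude one. The interaction without a filter called 2 genes, Rpl34-ps1 (log2 fold change 5.96, adjusted p 0.0272, 161 counts) and Rps18-ps3 (3.15, adjusted p 0.0272, 390 counts), with 86 and 125 of those counts in 6-3-A6 input 4. Of 197 genes described, 95 kept their sign under every alternative run and 102 did not, and of 37 list medians 8 did. The amino acid and ER stress median stayed between -0.68 and -0.38. Confidence intervals were widest for genes under 1 CPM, and an effect of depth was not tested.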
